A study of Populus ussuriensis with 2 samples.

Results

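The class III HD-ZIP genes of poplar were examined in the base of stem cuttings, in a study of adventitious root development. The members were chosen by ID, as the 7 listed loci taken to be poplar class III HD-ZIP genes, and they carried 19 of the 65535 listed transcripts. They are 7 of 36385 listed loci. Only members on the listed chromosomes were taken, and whether the list covers the whole genome was not checked. A class gene off the list would not be counted, so shares and percentiles below refer to the list only. The rule for choosing them used no expression value, though earlier results of these data were known when it was written. RNA-seq had been made from 2 libraries of Populus ussuriensis, both from the lowest 0.5 cm of stem cuttings at day 14 after cutting. The plants were grown in vitro on diluted Murashige and Skoog medium with 20 g/L sucrose at 25 °C, with 16 h of light and 8 h of dark, and 2-week-old seedlings were cut. No genotype, hormone or other treatment is given in the labels, and both libraries carry the same labels, so they form 1 group (n = 2, replicate 1 and replicate 2). Nothing says that they came from separate cuttings, so a spread between them may be technical. The series is a time course, and whether the libraries differ in stage in a way the labels do not state is not known, so each SD below is only the spread between these 2 libraries. The IDs follow the Potri form, that of Populus trichocarpa gene models, and no marker of the labelled tissue could be checked because no gene names are paired with the IDs.

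Class III HD-ZIP proteins are plant transcription factors with a homeodomain, a leucine zipper through which they pair, and a START domain. In Arabidopsis the class includes REVOLUTA, PHABULOSA, PHAVOLUTA, CORONA and ATHB8, which together help to set the upper side of leaves, the position of xylem within vascular bundles and the formation of shoot meristems. Their messages are cut under the guidance of the microRNAs miR165 and miR166, and small LITTLE ZIPPER proteins block their pairing. In poplar, popREVOLUTA is known for its part in the vascular cambium and in the patterning of secondary growth. The base of a cutting holds vascular tissue beside which adventitious roots form, roots that arise on tissue other than a root.

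All 7 loci were expressed in both libraries. Levels are in FPKM, fragments scaled to transcript length and to the mapped fragments of the library, summed over the listed transcripts of a locus. Pairs of values are in the order replicate 1, replicate 2. The lowest was popREVOLUTA (Potri.004G211300), at 11.7 and 13.3 FPKM. The highest value was 55.5 FPKM, for Potri.001G372300 in replicate 1. All 7 reached 1 FPKM in both libraries, where 56.5% of all listed loci did, and 88% of the loci with several listed transcripts. All 7 also lay above the median of the loci detected in both libraries, which was 10.6 and 10.7 FPKM. Together they summed to 250.3 and 240.5 FPKM, or 0.0453% and 0.0449% of the listed FPKM. In bulk tissue, fewer cells that express a gene and less of its RNA per cell cannot be told apart.

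The 7 levels fell into 3 tiers. Potri.003G050100, Potri.001G188800 and Potri.001G372300 formed the top one. Potri.003G050100 was at 54.6 FPKM in both libraries. Potri.001G188800 was at 53.6 and 52.6 FPKM. Potri.001G372300 was at 55.5 and 49.6 FPKM. It was thus the highest of the 7 in replicate 1 but below both others of the tier in replicate 2. The levels of these top 3 loci did not differ beyond their spread, except that Potri.003G050100 was above Potri.001G188800 by a margin described below.

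The middle tier lay well below. Potri.009G014500 was at 27.8 and 27.3 FPKM. Potri.006G237500 was at 25.3 and 21.7 FPKM. Potri.011G098300, the only member with a single listed transcript, was at 21.9 and 21.3 FPKM. Of these neighbours, Potri.009G014500 was higher than Potri.006G237500 in both libraries, 1.10-fold and 1.26-fold. Potri.006G237500 and Potri.011G098300 did not differ beyond their spread, with ratios of 1.16 and 1.02. The step from the top tier down to the middle one was 1.92-fold in replicate 1, from Potri.001G188800 to Potri.009G014500, and 1.82-fold in replicate 2, from Potri.001G372300 to Potri.009G014500.

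The popREVOLUTA locus stood alone at the bottom. Its mean was 12.5 ± 1.16 FPKM (SD, n = 2), and the next locus, Potri.011G098300, was 1.87-fold higher in replicate 1 and 1.60-fold higher in replicate 2. Among the loci detected in both libraries, popREVOLUTA lay at percentile 53.6 in replicate 1 and 58.1 in replicate 2. The 3 top loci lay between percentiles 90.0 and 91.2. Of the 21 possible pairs of the 7 loci, 19 had the same order in both libraries, and both exceptions involved Potri.001G372300 within the top tier. No test was made of these levels. With 2 libraries an exact two-sided sign-flip test cannot go below p = 0.5.

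**Figure D1:**
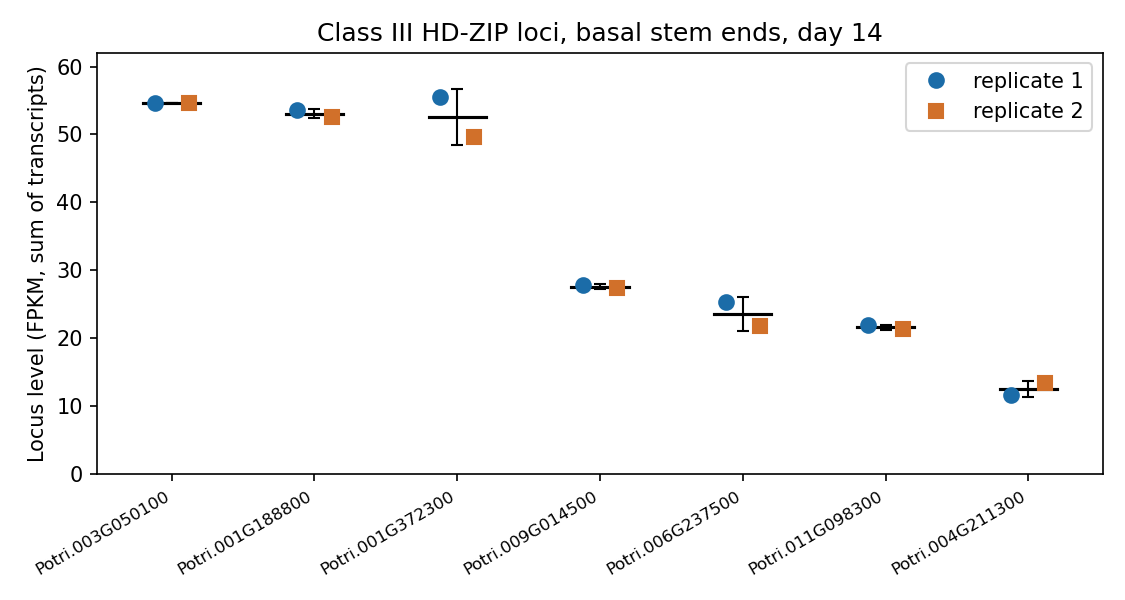
Level of each class III HD-ZIP locus in FPKM, summed over its transcripts, with 1 point per library, the mean as a bar and the SD (n = 2) as an error bar. The loci fall into a tier from 49.6 to 55.5 FPKM, a tier from 21.3 to 27.8 FPKM, and popREVOLUTA (Potri.004G211300) at 11.7 and 13.3 FPKM.

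Paralogous copies were compared as 3 pairs, set from general knowledge of duplicated chromosome blocks in poplar and not checked here against sequence. Both copies lie in the same library and FPKM is per length, so a ratio needs no scaling between libraries. How reads that match both copies were counted is not given, so each ratio is uncertain to that extent. Potri.006G237500 has no partner among the members, and whether it has a copy off the list was not checked.

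The popREVOLUTA pair was unequal. The partner, Potri.009G014500, was 2.38 times as high as popREVOLUTA in replicate 1 and 2.05 times in replicate 2. On the log2 scale the ratio was 1.15 ± 0.15 (SD, n = 2), several times its spread. The pair together held 16.3 ± 0.79% (SD, n = 2) of the summed FPKM of the 7 loci. Potri.009G014500 supplied 27.8 of 39.5 FPKM in one library and 27.3 of 40.6 FPKM in the other.

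The second pair was close to equal. Potri.003G050100 was 1.02 times as high as Potri.001G188800 in replicate 1 and 1.04 times in replicate 2. The log2 ratio, 0.04 ± 0.02 (SD, n = 2), was on the same side in both libraries and larger than its own spread. It was nevertheless smaller than the difference that a locus of this level usually showed between the libraries. Over the 9977 detected loci with a mean of 10 to under 100 FPKM, the median size of the log2 ratio between libraries was 0.16. Among the listed members this pair was the most abundant, with 108.2 and 107.2 FPKM. It held 43.9 ± 0.97% (SD, n = 2) of the summed FPKM of the 7 loci.

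The other pair with unequal copies was that of Potri.001G372300. Potri.001G372300 was 2.54 times as high as Potri.011G098300 in replicate 1 and 2.33 times in replicate 2, a log2 ratio of 1.28 ± 0.09 (SD, n = 2). The pair held 30.2 ± 0.99% (SD, n = 2) of the summed FPKM of the 7 loci. Potri.006G237500 alone held 9.57 ± 0.76%.

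The transcript taken to stand for a locus mattered for the equal pair and for the popREVOLUTA pair. Where transcript number 1 was used in place of the sum, Potri.003G050100 was higher than Potri.001G188800 by 0.92 on the log2 scale. With the leading transcript of each, taken as the one with the highest mean, the log2 ratio was -0.04 in replicate 1 and 0.81 in replicate 2, on opposite sides of 0, so the copies no longer differed beyond their spread. The order of the Potri.001G372300 pair was the same under each way of taking the level. That of the popREVOLUTA pair was the same under each way that gave a log2 ratio. Transcript number 1 gave none for it, but there the order was reversed in both libraries. Potri.009G014500.1 was at 0 and 0.219 FPKM, and Potri.004G211300.1 at 3.17 and 4.31 FPKM.

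**Figure D2:**
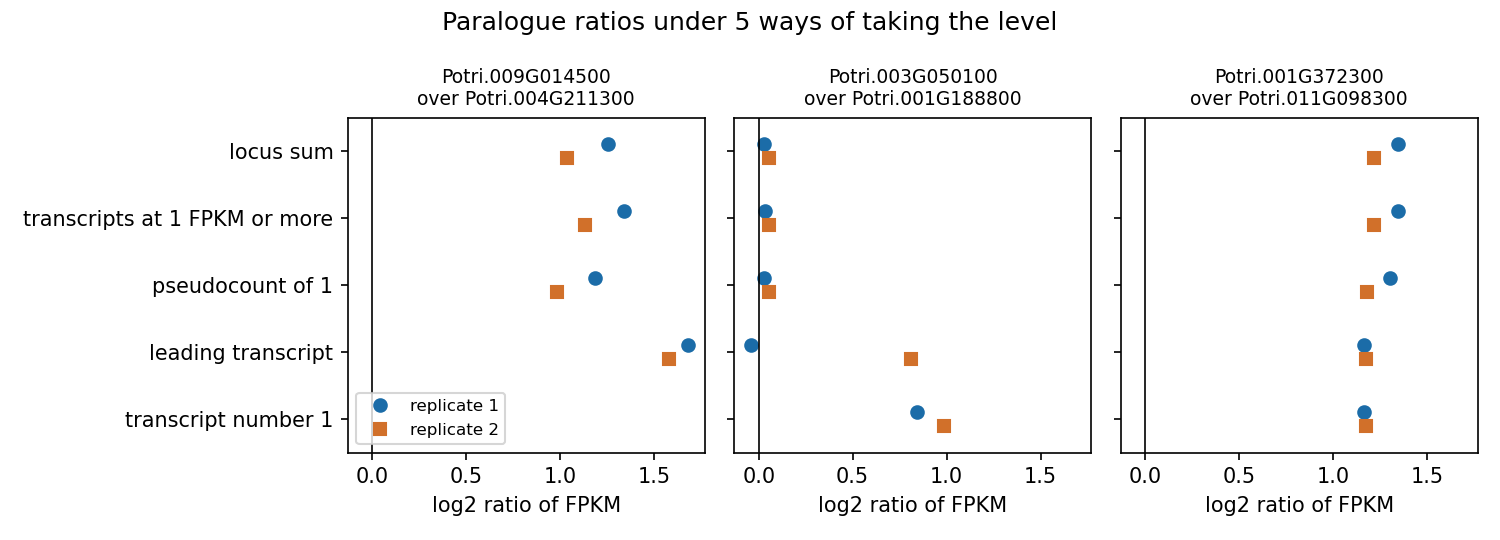
Log2 ratio of FPKM between paralogous copies in each library, with the level taken in 5 ways: the locus sum, the sum of transcripts at 1 FPKM or more, the sum with a pseudocount of 1 FPKM, the leading transcript and transcript number 1. The left and right pairs lie well to the right of 0 in both libraries, while the middle pair lies near 0 for locus sums and as high as 0.99 for transcript number 1, which has no value for the left pair because Potri.009G014500.1 was listed at 0 in replicate 1.

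The members differed in how their FPKM was divided among transcripts. Potri.009G014500 lists 4 transcripts and most of its signal was in the last. Potri.009G014500.4 was at 25.1 and 24.0 FPKM, which was 90.2% and 87.8% of the locus. Potri.009G014500.2 was at 2.74 and 3.11 FPKM. Potri.009G014500.1 was listed at 0 in replicate 1 and reached 0.219 FPKM in the other library, and Potri.009G014500.3 was listed at 0 in both.

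Its partner popREVOLUTA was more divided. Potri.004G211300.3 led with 7.82 and 8.04 FPKM, which was 67.0% and 60.4% of the locus. Potri.004G211300.1 was at 3.17 and 4.31 FPKM, and Potri.004G211300.2 was below 1 FPKM in both libraries, at 0.692 and 0.958. The leading transcripts alone, Potri.009G014500.4 over Potri.004G211300.3, gave a log2 ratio of 1.63 ± 0.07 (SD, n = 2), larger than that of the locus sums.

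The most evenly divided locus was Potri.001G188800. Potri.001G188800.4 was at 26.6 and 19.6 FPKM. Potri.001G188800.1 was at 14.4 and 17.3 FPKM, and Potri.001G188800.2 at 12.4 and 15.6 FPKM. Potri.001G188800.4 led in both libraries but held only 49.6% and 37.3% of the locus, and the order of the 3 was the same in both. Potri.001G188800.3 reached 0.265 FPKM in replicate 1 and was listed at 0 in the other library. The evenness can be put as an effective number of transcripts, the inverse of the summed squared shares. It was 2.69 in replicate 1 and 2.97 in replicate 2, against medians of 1.47 and 1.45 over the 1601 detected loci with 4 listed transcripts. That placed the locus at the 95.3rd and the 98.3rd percentile of those loci.

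Potri.003G050100 was divided between 2 transcripts, and they exchanged the lead. Potri.003G050100.1 was at 25.8 and 34.4 FPKM. Potri.003G050100.3 was at 28.8 and 20.3 FPKM, and Potri.003G050100.2 was listed at 0 in both libraries. The locus sum was 54.59 and 54.61 FPKM, while 15.7% of the locus FPKM was assigned to a different transcript. The median of this measure was 4.07% over the 6331 loci of several transcripts with a mean of 10 to under 100 FPKM, and Potri.003G050100 lay at the 83.7th percentile. It was 1 of 6 members with several transcripts whose leader differed between the libraries, which 8.88% of all such detected loci did.

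Member transcripts listed at 0 in both libraries numbered 2 of 19, where 32% of all listed transcripts were at 0 in both. The remaining loci with several transcripts were each dominated by 1 transcript. Potri.001G372300.1 was at 49.0 and 48.1 FPKM, and Potri.006G237500.2 was at 21.71 and 21.72 FPKM. Both loci list 2 transcripts, and the leaders held 88.4% and 96.9% of the first and 85.7% and 99.96% of the second. In these 2 loci the minor transcript was the part that varied. Potri.001G372300.2 was at 6.46 and 1.53 FPKM. Potri.006G237500.1 was at 3.61 and 0.00975 FPKM.

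**Figure D3:**
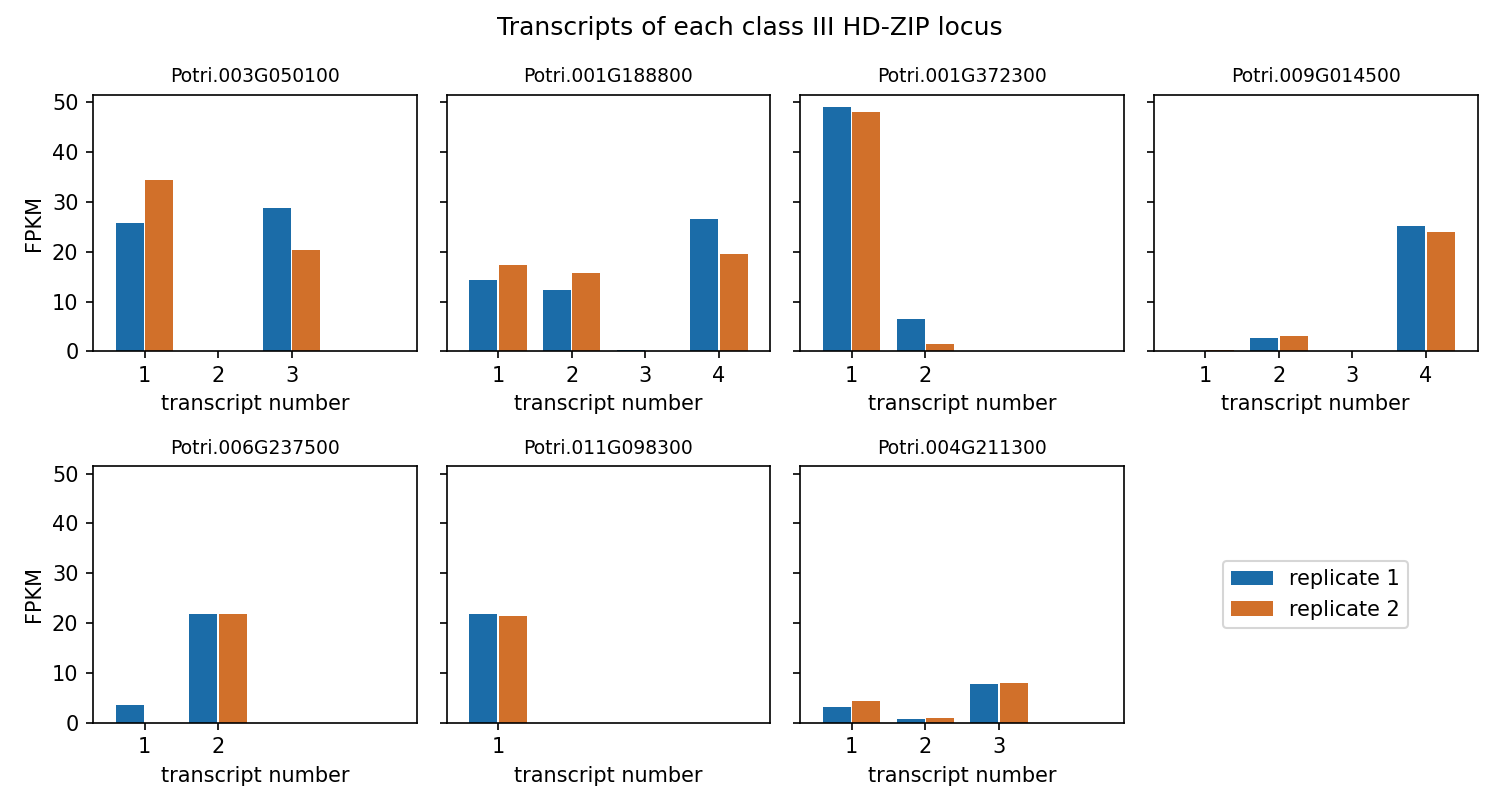
FPKM of every listed transcript of the 7 loci, with 1 bar per library. Transcripts 1 and 3 of Potri.003G050100 exchange the lead between libraries, and the minor transcripts of Potri.001G372300 and Potri.006G237500 are the only 2 with a mean of at least 1 FPKM that lie 2-fold apart.

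**Figure D4:**
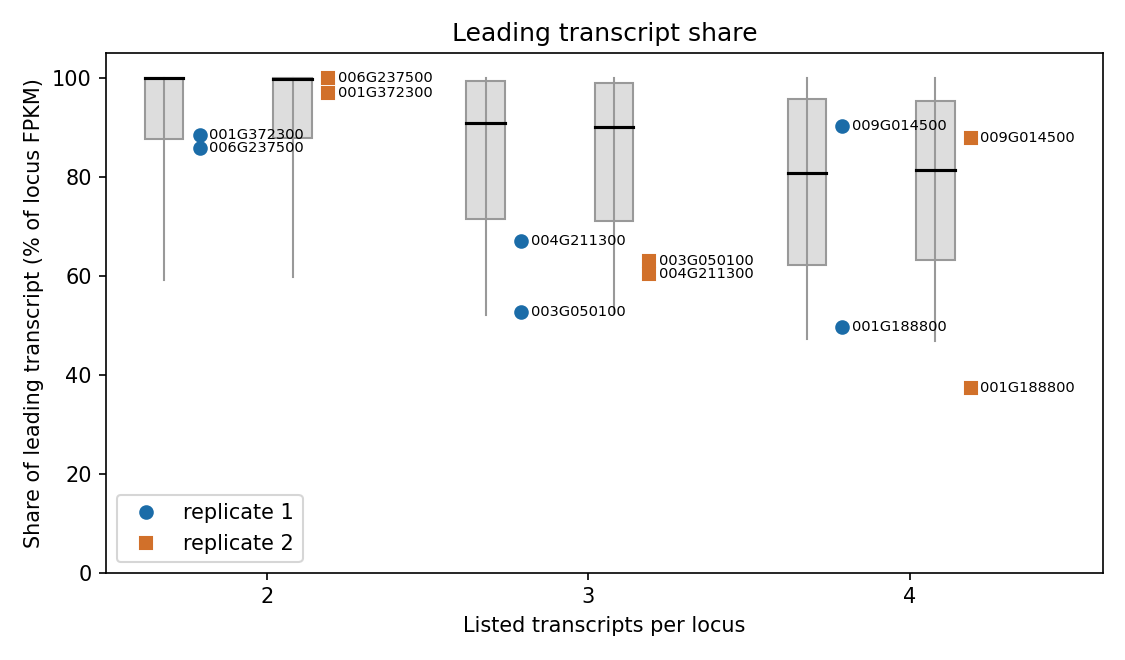
Share of the locus FPKM held by the leading transcript, for members with 2, 3 or 4 listed transcripts (coloured points), beside all detected loci of the same number (grey interquartile boxes, black median lines, lines from the 5th to the 95th percentile). Potri.001G188800 lies at 49.6% and 37.3%, where the median of loci with 4 transcripts is 80.7% and 81.5%, and Potri.009G014500 lies above that median.

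These 2 minor transcripts were the only members called apart, that is at least 2-fold different between the libraries with a mean of at least 1 FPKM. They were 2 of the 14 member transcripts with that mean (14.3%), close to the 13.5% of all 28654 such transcripts, so the share is no result about the class. Both were higher in replicate 1. Over all transcripts, 1873 of the 3880 called were higher in replicate 1, or 6.54% of the 28654 with that mean. Potri.001G372300.2 was 4.23-fold apart. Potri.006G237500.1 was 370-fold apart as deposited, a fold that rests on a value near 0 in replicate 2, and the reads behind that value are not known. Without them only the leading transcripts remained, with Potri.001G372300 at 49.0 and 48.1 FPKM and Potri.006G237500 at 21.71 and 21.72 FPKM. The minor transcripts were left out because they differed between these libraries, so the closeness that remained follows in part from that choice. No member locus was 2-fold apart, where 5.03% of 21247 loci were. With 1 library on each side no test was attached to these calls.

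The locus levels lay close together in the 2 libraries. On the log2 scale, replicate 2 over replicate 1 ranged from -0.22 for Potri.006G237500 to 0.19 for popREVOLUTA. Of the 7 loci, 5 were higher in replicate 1. The median log2 ratio of all detected loci from 10 to under 100 FPKM was -0.014, so a majority of those were higher in replicate 1 too. The count is therefore no result about the class III HD-ZIP loci. In 5 of the 7 the size of this ratio was under 0.164, the median for loci from 10 to under 100 FPKM, and the 2 others lay at the 55.6th and 62.2nd percentile of that class. The SD of the log2 ratio over that class was 0.40.

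**Figure D5:**
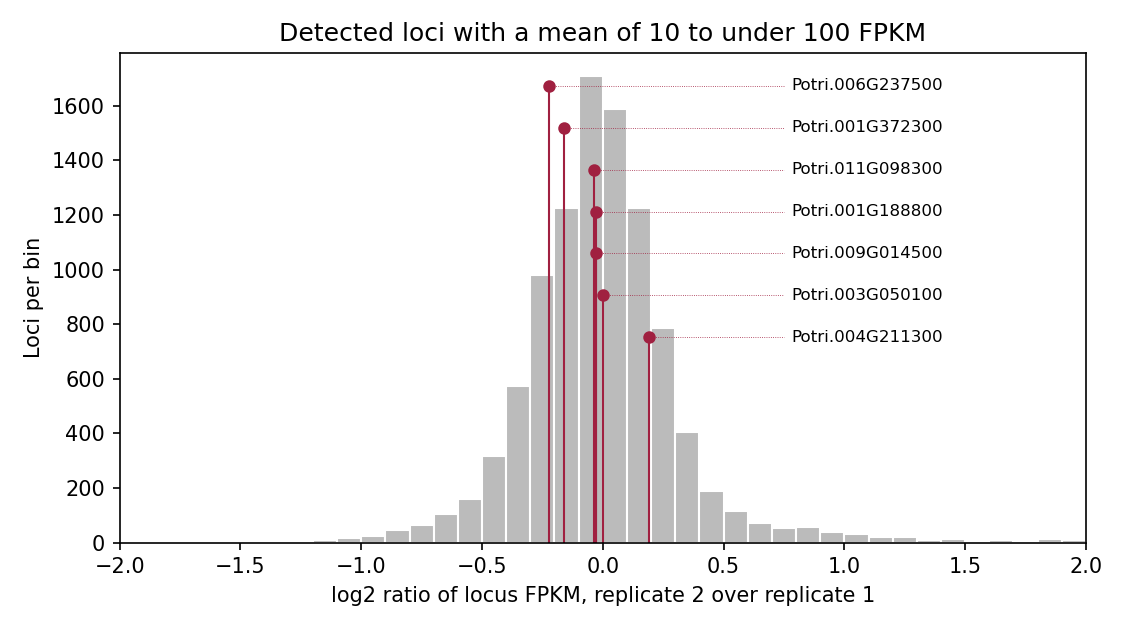
Number of loci per bin of the log2 ratio of locus FPKM, replicate 2 over replicate 1, for the 9977 detected loci with a mean of 10 to under 100 FPKM (grey; 62 beyond the axis are not drawn), with the 7 class III HD-ZIP loci as red lines whose height has no meaning. All 7 lie between -0.22 and 0.19, in the central part of the distribution.

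The files give no depth, but for Potri.011G098300.1 the values allowed it to be read. The ratio of its 2 FPKM values equalled that of 893 reads in replicate 1 to 994 reads in replicate 2, within a relative tolerance of 1e-08, once replicate 2 was taken as 1.14 times as deep. These are the smallest whole numbers that fit, so they are lower bounds if reads were whole. At 893 and 994 reads the counting error of its log2 ratio was 0.07. The exact 95% interval ran from -0.17 to 0.10, around the observed -0.04. More reads than these lower bounds would narrow the interval, so it cannot decide whether the libraries differed at this locus. The interval covers counting error only. At this locus 1 read was then worth at most 0.0245 and 0.0214 FPKM. None of the other 14 member transcripts above 0 in both libraries gave whole reads, the 6 under 10 FPKM included. The search stopped at a product of 1000000, so a transcript whose smallest fitting whole numbers multiply to more could not have passed. Potri.006G237500.1 was listed at 0.009749381 FPKM in replicate 2, too few digits for a tolerance of 1e-08, so it could fail by rounding alone. How reads were divided among transcripts of a locus is not known, and its part in the shares above was not tested.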

How the data were processed

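The authors deposited 1 FPKM value per transcript ID for each library, per the file headers. Bowtie2 2.2.3 and HISAT2 2.1.0 are named, with no role, in the submitters' processing notes. The build, the annotation, filters and the quantification program were not given in the sources used here. The part of an ID before its last number was read as the locus, and FPKM of listed transcripts were summed per locus with no rescaling. Detection was set at 1 FPKM, and a call of apart at 2-fold with a mean of at least 1 FPKM. Paralogue ratios were taken within a library and called different where both libraries lay on 1 side and the mean log2 ratio exceeded the SD. Whole reads were sought from FPKM ratios, with the ratio of the FPKM of 1 read (0.876) read from single-transcript loci under 1 FPKM. This step was chosen once values had been seen. The calls and the read search were tested on simulated data. The members and lists were chosen with earlier results of these data known. All 7 members were named by rule. Gene lists for LITTLE ZIPPER, KANADI, YABBY, small RNA machinery, other HD-ZIP, auxin response factors and tissue markers were to be matched by product description. No such table was used here, so none has a result. Likeness of pattern to other genes was not computed, because 2 libraries give any 2 genes a correlation of 1 or -1. Python 3.11.15, pandas 2.3.3, NumPy 2.4.6, SciPy 1.17.1 and matplotlib 3.10.9 were used.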

Additional observations from a re-analysis of the deposited data

How the results depend on the processing

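Most of the recomputed values stayed within 1 SD or, for counts, within 1.5 times, with 8 exceptions. No mean of a called ratio reversed where a ratio could be taken. With the leading transcript in place of the locus sum, the log2 ratio of Potri.009G014500 over Potri.004G211300 went from 1.15 to 1.63, that of Potri.003G050100 over Potri.001G188800 from 0.04 to 0.38 with an SD of 0.60, and that of Potri.001G372300 over Potri.011G098300 from 1.28 to 1.17. With transcript number 1 the last 2 became 0.92 and 1.17. The first gave no log2 ratio, but its order was reversed, with Potri.009G014500.1 below Potri.004G211300.1 in both libraries. For Potri.003G050100 over Potri.001G188800 the leading transcripts gave -0.04 and 0.81 in the 2 libraries, which ends the call. The cause of these shifts was not tested. Scaling to the same listed sum moved Potri.003G050100 from 54.60 to 54.61 FPKM, past its SD of 0.014. The 2 member transcripts apart became 4 with no minimum level, by adding 2 that are listed at 0 in 1 library, where 33.2% of all transcripts were called. They became 0 once a mean of 5 FPKM was required, where 5.31% were. Leaving out 1 library gives the values of the other, which for a group of 2 always lie within 1 SD. The sum without the transcripts 2-fold apart was chosen after seeing the data. Alternatives for the gene lists were left out for want of names. No paired analysis was possible because only 1 group exists. Depth is known only as a lower bound at Potri.011G098300, so the reads behind the lowest transcripts are not known.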
